A study of Mus musculus with 24 samples.

Results

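Leukocytes move between blood, lymph nodes, spleen, gut and bone marrow by following chemokines and lipid mediators, and the receptors for these cues are 7-transmembrane proteins that signal through G proteins. Chemokine receptors such as Ccr7 and Cxcr5 bring lymphocytes into lymphoid organs, the sphingosine-1-phosphate receptor S1pr1 lets them leave again into blood, and Cxcr4 holds blood cells of many lineages in the bone marrow. Receptors of this kind mark T and B lymphocytes in blood, which are among the most radiosensitive cells of the body. The transcripts of 8 such genes were followed in mouse blood after X-ray exposure: Ccr7, Cxcr5, Cxcr4, Ccr6, Ccr9, S1pr1, Gpr183 and Gpr174. They were taken by name from the non-control probes of the array, as 8 of 24325 gene symbols, and are represented by 10 probes, of which the brightest of each gene was used. The set was named for lymphocyte trafficking and not chosen by a threshold on these values. Earlier results of these data were known, however, when the set and the marker lists used below were chosen. Counts of called genes among them are therefore descriptive. All 8 were among the 13054 genes bright enough to be tested, and 3 of them (Ccr7, Cxcr4 and S1pr1) were well above background on all 24 arrays.

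Whole blood of 24 male 129S/J mice was measured, 1 mouse per 1-colour array, 24 h after X-ray or sham exposure. Wild-type mice received 0 Gy (n = 5), 6 Gy (n = 5) or 8.8 Gy (n = 4), and Parp1-/- mice, which lack a DNA-damage sensor that attaches ADP-ribose chains to proteins, received 0 Gy (n = 5) or 6 Gy (n = 5). By the series' design text, 50% of animals die within 30 days of 8.8 Gy in the wild-type strain and of 6 Gy in the Parp1-/- strain. Blood came from cardiac puncture into an RNA stabiliser and globin transcripts were depleted, so all leukocytes, platelets and residual red cell RNA were measured together. In such bulk RNA, fewer cells of a type and less RNA per cell cannot be told apart. Levels below are log2 of the processed signal minus the 75th percentile of the same array, and a level of 1 probe is not set against that of another. Each difference is an irradiated or first-named group minus its comparator on that log2 scale, given with its standard error (SE) from a limma fit of the 5 group means, and p-values are adjusted over all 13054 genes (called at adjusted p under 0.05).

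Of the 8 genes, 5 matched an entry in the RefSeq promoter table of mouse build GRCm38.p6 (Cxcr4, Ccr9, Gpr183, Ccr6 and Gpr174); Ccr7, Cxcr5 and S1pr1 did not. The 250 bases before the annotated start are printed for 3 of them, Cxcr4, Ccr9 and Gpr174. The level of Cxcr4 was nearly flat in the response described below, and Gpr174 was not well above background on any irradiated array. Ccr9 was well above background on only 1 array each after 8.8 Gy in wild type and 6 Gy in Parp1-/- mice. Capitals mark every match, on either strand, to CACCC (the motif of KLF factors), GGAAG (the ETS core), TATAAA (the TATA box), CCAAT (the motif of NF-Y) or GGGCGG (the GC box).
Cxcr4 (chr1:128592300-128592549, minus strand): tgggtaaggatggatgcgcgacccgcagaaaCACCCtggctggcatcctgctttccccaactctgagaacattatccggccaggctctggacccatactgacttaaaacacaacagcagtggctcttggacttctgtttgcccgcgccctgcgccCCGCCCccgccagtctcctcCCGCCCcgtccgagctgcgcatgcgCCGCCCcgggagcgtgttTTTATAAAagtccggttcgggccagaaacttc
Ccr9 (chr9:123766961-123767210, plus strand): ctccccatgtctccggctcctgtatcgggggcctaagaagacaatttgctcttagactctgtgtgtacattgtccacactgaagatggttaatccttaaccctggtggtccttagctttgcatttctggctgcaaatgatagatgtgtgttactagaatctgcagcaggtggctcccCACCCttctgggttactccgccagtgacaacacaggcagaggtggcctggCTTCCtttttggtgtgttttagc
Gpr174 (chrX:107284096-107284345, plus strand): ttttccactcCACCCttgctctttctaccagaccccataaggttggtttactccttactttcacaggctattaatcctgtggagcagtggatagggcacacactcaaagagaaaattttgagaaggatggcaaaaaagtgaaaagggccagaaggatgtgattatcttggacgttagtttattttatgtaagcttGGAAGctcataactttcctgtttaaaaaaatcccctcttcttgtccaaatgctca

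The Cxcr4 window was GC-rich (61.2% G or C, against a median of 52.4% over 32851 promoters) and held 3 GC boxes, 1 CACCC match and 2 overlapping TATAAA matches. The Ccr9 window had 50.4% G or C and the Gpr174 window 40.4%, and each held 1 CACCC and 1 GGAAG match and no GC box. The GC content was 32% for Gpr183 and 41.2% and 46% for the 2 annotated starts of Ccr6, whose windows held GGAAG matches only. GC boxes occurred in 32.7% of all promoters of this length, CACCC in 52%, GGAAG in 64.1%, TATAAA in 12.4% and CCAAT in 33.8%. The p53 core decamer, present in 7.13% of all windows, was in none of the 6 windows of these genes. These matches describe the letters of each window only.

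Parp1 was examined first as a check of the genotype labels. Its level was -0.35, -0.49, -0.58, -0.94 and -0.71 on the wild-type 0 Gy arrays and -2.29, -2.81, -3.82, -2.90 and -3.16, never well above background, on the Parp1-/- 0 Gy arrays (difference -2.38 ± 0.51 SE, adjusted p = 0.0307). At 6 Gy the Parp1-/- arrays stood at -1.67, -3.45, -5.01, -3.82 and -4.67 and the wild-type arrays at -1.27, -2.33, -1.88, -1.52 and -2.06. The wild-type 8.8 Gy arrays gave -1.25, -1.56, -1.59 and -3.95. Parp1 was thus well above background and inside the wild-type range on the array with the label Parp1-/- 6 Gy replicate 1. It was below background and inside the Parp1-/- range on the one with the label wild-type 8.8 Gy replicate 4. Gene levels on the former also hardly differed from those on wild-type 8.8 Gy replicate 2, with an SD of log2 differences of 0.168 over 7595 genes. Parp1-/- 0 Gy replicates 4 and 5 came next at 0.271, and the 276 array pairs had a median of 0.921. These 3 arrays were kept under their labels, and receptor levels whose call changes without them are given with both values. Between 36.5% and 57.5% of probes were well above background per array. Scan days were unevenly spread over the groups: all wild-type 0 Gy arrays and Parp1-/- 6 Gy replicate 4 were scanned on day 4, all other irradiated arrays except Parp1-/- 6 Gy replicate 5 on day 3, and all Parp1-/- 0 Gy arrays on days 1 and 2.

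Transcripts of 7 of the 8 receptors were lower in irradiated than in sham blood, and Cxcr4 stood apart. In wild-type mice, 6 of 8 passed the test as lower at 6 Gy, where 10.9% of all tested genes were called lower (26.4% in either direction), and 7 of 8 at 8.8 Gy, where 9.02% were called lower (16.1% in either direction). In Parp1-/- mice 7 of 8 passed as lower at 6 Gy, against 10.5% of all genes (22.8% in either direction). No receptor passed as higher. Gpr174, counted as lower in each response, was bright enough to be tested only through the wild-type sham group. A gene tested for that reason is likely to be lower elsewhere, so its calls and lack of overlap are not counted as support. The median difference over the 8 genes was -1.44 at 6 Gy and -2.33 at 8.8 Gy in wild type and -2.30 in Parp1-/- mice, beside 0.041, 0.034 and -0.073 over all tested genes. With Gpr174, which fell below detection, set at the bound given for it below, the wild-type medians were -1.44 and -2.29. The Parp1-/- median moved more, to -1.77, with Gpr174 set in the same way, although only 3 of 5 sham arrays there were above background. Levels of the irradiated and sham groups did not overlap for 7 of 8 receptors at either dose in wild type, against 9.61% and 11.4% of all genes with non-overlapping lower levels, and for 3 of 8 in Parp1-/- mice, against 6.02%. Irradiated and sham arrays were scanned on largely separate days, and values within days follow further down.

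**Figure D1:**
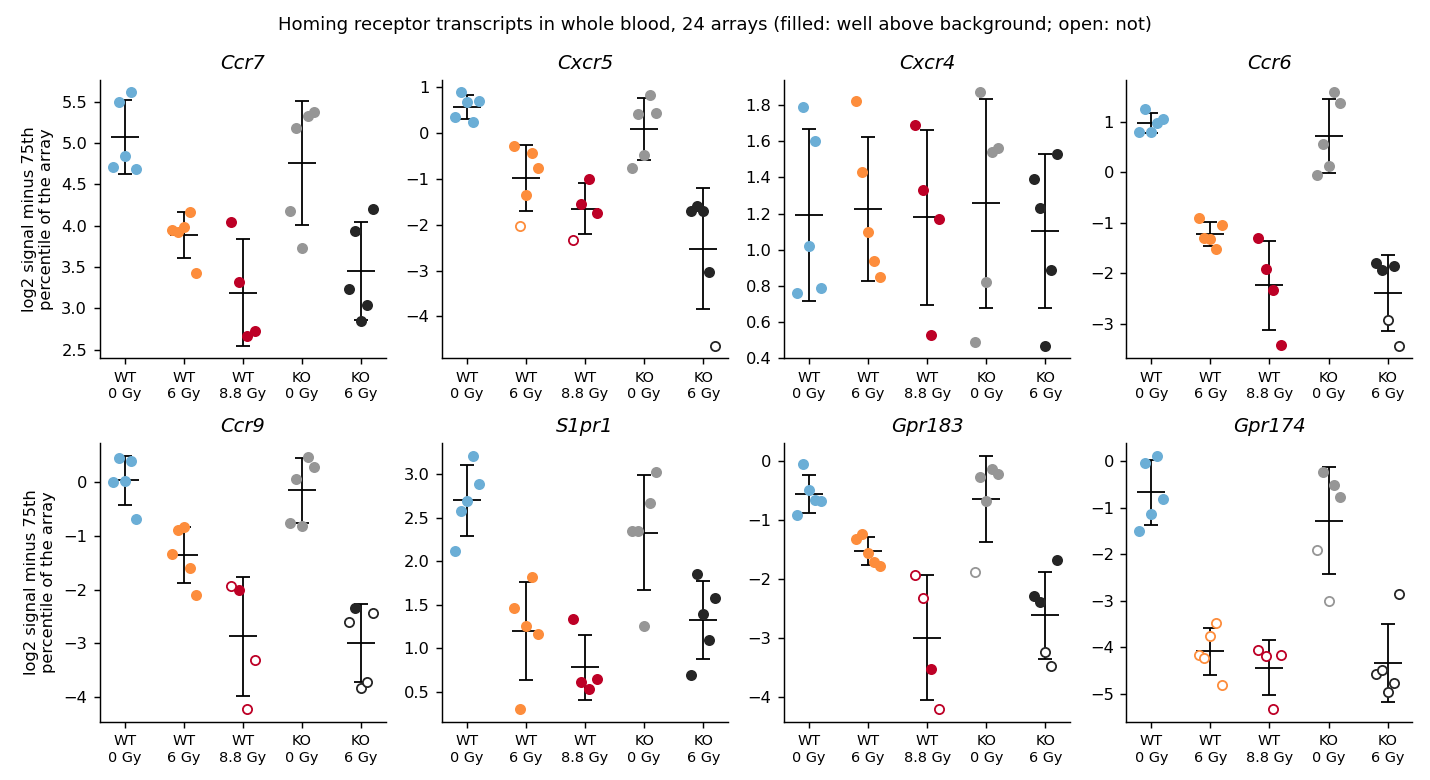
Level of each of the 8 receptor transcripts on every array (log2 processed signal minus the 75th percentile of the array, each panel with its own axis) in the 5 groups of wild-type (WT) and Parp1-/- (KO) mice, with the group mean and SD in black; filled points were well above background and open points were not. The irradiated groups sit below the sham groups for every receptor but Cxcr4, whose 5 group means lie between 1.10 and 1.26.

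Ccr7, which draws naive T cells and dendritic cells into lymph nodes along Ccl19 and Ccl21, was measured by a probe at chr11:99005551-99005610 (mm9, the build of the array files). Its level in wild-type mice was 4.71, 5.49, 4.84, 5.61 and 4.69 at 0 Gy, 3.95, 3.92, 3.98, 4.17 and 3.43 at 6 Gy, and 4.05, 3.32, 2.67 and 2.73 at 8.8 Gy (replicates in order, here and below). Parp1-/- mice gave 4.18, 5.18, 3.73, 5.32 and 5.37 at 0 Gy and 3.23, 3.94, 2.85, 3.04 and 4.2 at 6 Gy. Every irradiated wild-type array was below every wild-type sham array, whereas in Parp1-/- mice sham replicates 1 and 3 were low enough to overlap with irradiated replicates 2 and 5. Ccr7 fell by 1.18 ± 0.35 at 6 Gy (adjusted p = 0.0174) and by 1.87 ± 0.37 at 8.8 Gy (adjusted p = 0.00203) in wild type, and by 1.30 ± 0.35 in Parp1-/- mice (adjusted p = 0.0091). These are 2.26-fold, 3.67-fold and 2.47-fold lower levels.

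Cxcr5, the Cxcl13 receptor that guides B cells and follicular helper T cells into follicles, was read by a probe at chr9:44320071-44320130 (mm9). Wild-type levels were 0.36, 0.89, 0.69, 0.24 and 0.70 at 0 Gy, -0.29, -2.02, -1.36, -0.43 and -0.76 at 6 Gy, and -2.33, -1.54, -0.99 and -1.74 at 8.8 Gy. Parp1-/- levels were -0.75, 0.41, -0.48, 0.83 and 0.45 at 0 Gy and -1.71, -1.58, -1.69, -3.02 and -4.64 at 6 Gy. In neither genotype did irradiated and sham arrays overlap, and the Parp1-/- 6 Gy group was the most spread, with replicate 5 lowest and not well above background. The fall was 1.55 ± 0.48 (2.92-fold lower, adjusted p = 0.0217) at 6 Gy and 2.23 ± 0.51 (4.68-fold, adjusted p = 0.00529) at 8.8 Gy in wild type. For Parp1-/- mice it was 2.62 ± 0.48 (6.15-fold, adjusted p = 0.000546). The wild-type 6 Gy call was lost without replicate 2 (-1.28, adjusted p = 0.0714) or replicate 3 (-1.45, adjusted p = 0.0551) of that group.

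Gpr183, an oxysterol receptor that positions activated B cells and dendritic cells at the edges of follicles, was read at chr14:122351881-122351940 (mm9). Its wild-type levels were -0.92, -0.059, -0.49, -0.66 and -0.69 at 0 Gy, -1.33, -1.24, -1.57, -1.72 and -1.79 at 6 Gy, and -1.93, -2.32, -3.53 and -4.21 at 8.8 Gy. The Parp1-/- levels were -1.89, -0.27, -0.68, -0.14 and -0.23 at 0 Gy and -2.29, -2.40, -3.25, -3.48 and -1.68 at 6 Gy. The 3 wild-type groups followed each other without overlap, 0 Gy above 6 Gy above 8.8 Gy, although only 1 of the 4 arrays at 8.8 Gy was well above background. In Parp1-/- mice sham replicate 1 was the low array and overlapped with irradiated replicate 5. The wild-type difference at 6 Gy, -0.97 ± 0.40, missed the threshold (adjusted p = 0.0769). It passed in 5 of the 24 other settings: with median centring (-1.75), quantile normalization (-1.30, adjusted p = 0.00588) or normexp background correction (-0.54), in the authors' deposited table (-1.0, adjusted p = 0.00308), and in a fit of the compared groups alone (-0.97, adjusted p = 0.00949). At 8.8 Gy Gpr183 fell by 2.44 ± 0.43 (5.42-fold lower, adjusted p = 0.000743), and in Parp1-/- mice by 1.98 ± 0.40 (3.94-fold, adjusted p = 0.00135).

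Ccr6, the receptor for Ccl20 on B cells and on Th17 cells, was read at chr17:8449933-8449992 (mm9). In wild type its level was 0.79, 1.25, 0.80, 0.98 and 1.06 at 0 Gy, -0.91, -1.30, -1.31, -1.51 and -1.05 at 6 Gy, and -1.30, -1.92, -2.32 and -3.41 at 8.8 Gy. The Parp1-/- values were -0.048, 0.56, 0.12, 1.58 and 1.38 at 0 Gy and -1.79, -1.94, -2.92, -1.86 and -3.43 at 6 Gy. The gap between sham and irradiated arrays was wide in both genotypes, with no overlap. Ccr6 fell by 2.19 ± 0.38 at 6 Gy (4.57-fold lower, adjusted p = 0.000528) and by 3.21 ± 0.40 at 8.8 Gy (9.28-fold, adjusted p = 1.81e-05) in wild type. The fall in Parp1-/- mice was 3.10 ± 0.38 (8.6-fold, adjusted p = 9.75e-06), with 3 of the 5 irradiated arrays still well above background.

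Ccr9, the Ccl25 receptor of gut-homing and thymus-seeding lymphocytes, was read at chr9:123690334-123690393 (mm9). Wild-type arrays had 0.0089, 0.45, 0.014, 0.39 and -0.69 at 0 Gy, -1.33, -0.90, -0.84, -1.60 and -2.10 at 6 Gy, and -1.93, -2.01, -4.22 and -3.31 at 8.8 Gy. Parp1-/- arrays had -0.76, 0.059, -0.82, 0.46 and 0.28 at 0 Gy and -2.60, -2.35, -3.83, -3.71 and -2.44 at 6 Gy. Each irradiated group lay wholly below the sham group of its genotype. After 8.8 Gy in wild type and after 6 Gy in Parp1-/- mice only 1 array of the group was well above background. Ccr9 fell by 1.39 ± 0.42 (2.62-fold lower, adjusted p = 0.0193) and 2.90 ± 0.45 (7.48-fold, adjusted p = 0.000216) at the lower and higher dose in wild type, and by 2.83 ± 0.42 in Parp1-/- mice (7.12-fold, adjusted p = 7.72e-05). A dimmer probe of Ccr9, at chr9:123680935-123680994, was well above background on 8 of 24 arrays. It gave -0.41 ± 0.54 (adjusted p = 0.606), -1.92 ± 0.58 (adjusted p = 0.0266) and -2.51 ± 0.54 (adjusted p = 0.00216) in the same order.

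S1pr1 senses the sphingosine-1-phosphate gradient by which lymphocytes leave lymph nodes and thymus, and is also made by endothelial cells. Its probe lies at chr3:115414020-115414079 (mm9). Wild-type levels were 2.12, 2.57, 2.69, 3.21 and 2.89 at 0 Gy, 1.46, 0.30, 1.25, 1.82 and 1.16 at 6 Gy, and 1.33, 0.61, 0.53 and 0.64 at 8.8 Gy. Parp1-/- levels were 2.34, 2.35, 1.25, 2.67 and 3.02 at 0 Gy and 0.69, 1.85, 1.39, 1.09 and 1.58 at 6 Gy. Irradiated and sham arrays were separate in wild type, and in Parp1-/- mice sham replicate 3 lay among the irradiated ones. S1pr1 fell by 1.49 ± 0.32 at 6 Gy (2.81-fold lower, adjusted p = 0.00282) and 1.92 ± 0.34 at 8.8 Gy (3.78-fold, adjusted p = 0.000788) in wild type, and by 1.0 ± 0.32 in Parp1-/- mice (2.01-fold, adjusted p = 0.0256). The Parp1-/- call was the least stable of the set. It held in 13 of 25 other settings, with differences from -1.27 to -0.75 over all of them. Among others, it was lost without irradiated replicate 1 (-0.85, adjusted p = 0.0733) or 4 (-0.95, adjusted p = 0.0574). It was also lost without sham replicate 4 (-0.92, adjusted p = 0.0659) or 5 (-0.83, adjusted p = 0.0808), and with either set of doubtful arrays left out (-0.85, adjusted p = 0.0842 and 0.0799).

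Gpr174, a lysophosphatidylserine receptor of T and B cells, was read at chrX:104492005-104492064 (mm9) and was detected on sham arrays only. It stood at -1.50, -0.041, -1.13, 0.11 and -0.81 on the wild-type 0 Gy arrays, all well above background. On the Parp1-/- 0 Gy arrays it stood at -1.90, -0.24, -3.00, -0.52 and -0.77, with replicates 1 and 3 not above background. It was not well above background on any irradiated array of either genotype, where the measured means were -4.08 (wild type, 6 Gy), -4.43 (wild type, 8.8 Gy) and -4.33 (Parp1-/-, 6 Gy), so that the falls are lower bounds. Gpr174 was at least 3.18-fold lower at 6 Gy (adjusted p = 7.43e-05) and at least 5.08-fold lower at 8.8 Gy (adjusted p = 5.22e-05) in wild type. In Parp1-/- mice it passed as lower (adjusted p = 0.000141), and no fold bound is given here because 2 of the 5 sham arrays were not above background either. The bound sets the sham mean against the mean, over the irradiated arrays, of the lowest signal well above background or the probe's own signal, whichever was higher. Another probe for Gpr174, at chrX:104487705-104487764, was above background on none of the 24 arrays and carries no information on the level.

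Cxcr4, the Cxcl12 receptor that retains hematopoietic and immune cells in bone marrow and is made by many leukocyte types, did not follow the others. Its probe at chr1:130485079-130485138 (mm9) gave 0.76, 1.79, 1.02, 1.60 and 0.79 in wild type at 0 Gy, 1.82, 1.43, 1.10, 0.94 and 0.85 at 6 Gy, and 1.69, 1.33, 0.53 and 1.17 at 8.8 Gy. Parp1-/- mice gave 0.49, 1.87, 0.82, 1.54 and 1.56 at 0 Gy and 1.39, 1.23, 0.47, 0.89 and 1.53 at 6 Gy. All 5 groups overlapped. The differences were 0.034 (95% interval -0.59 to 0.66, adjusted p = 0.947) and -0.015 (-0.68 to 0.65, adjusted p = 0.981) in wild type at 6 and 8.8 Gy, and -0.15 (-0.78 to 0.47, adjusted p = 0.741) in Parp1-/- mice. Changes inside these intervals are not excluded with this number of arrays. With each array centred on its median instead of its 75th percentile, Cxcr4 passed as lower at 6 Gy in wild type (-0.75, adjusted p = 0.0409). That scaling moved the median difference of all genes at this dose from 0.041 to -0.74 and their split from 2027 higher and 1419 lower to 535 and 5569, so that Cxcr4 then stood at -0.75 beside -0.74 for the median gene. At 8.8 Gy the split moved from 918 higher and 1178 lower to 500 and 1998.

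**Figure D2:**
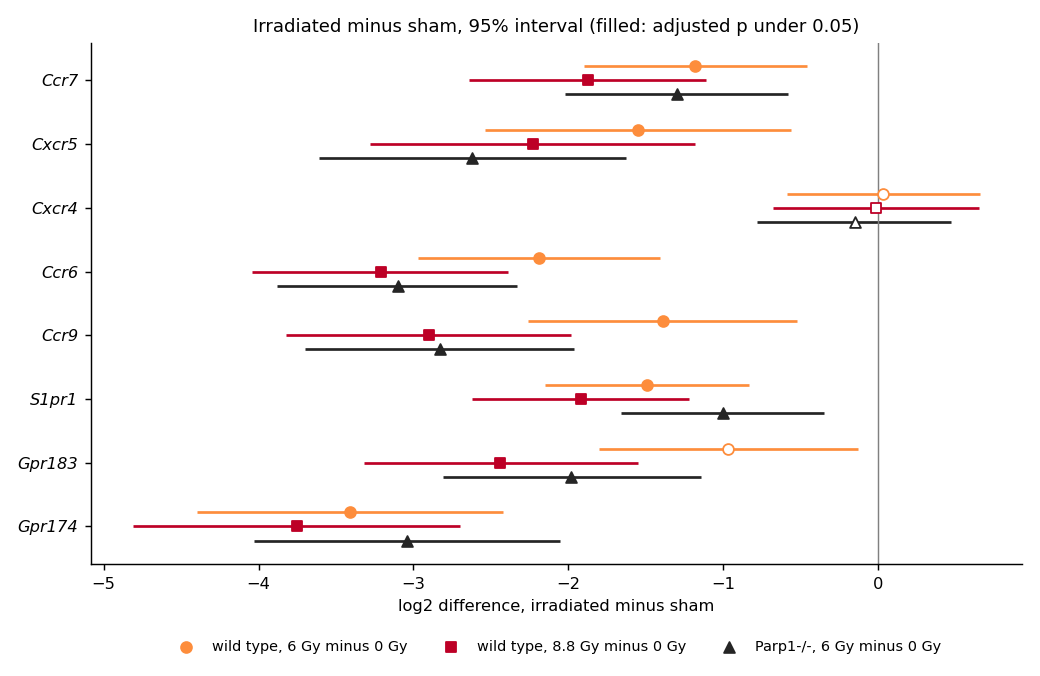
Log2 difference between irradiated and sham mice for each receptor in the 3 responses, with 95% intervals from the limma fit; filled symbols passed at an adjusted p under 0.05. The receptors other than Cxcr4 lie left of 0 in all 3 responses, from -0.97 for Gpr183 at 6 Gy downwards, and the Gpr174 points rest on irradiated arrays that were not above background.

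Scan day bore on all 3 responses. The 7 receptors other than Cxcr4 kept a lower mean in each response under every setting run on the brightest probe. With scan day as a block, however, 0 of 8 passed at 6 Gy and 1 of 8 (Cxcr5, -3.59, adjusted p = 0.0444) at 8.8 Gy in wild type. Of all 13054 genes, the block left 12 called higher and 3 lower at 6 Gy and 11 and 12 at 8.8 Gy. Without it, 2027 were higher and 1419 lower at 6 Gy and 918 and 1178 at 8.8 Gy. These blocked wild-type values are tied to the controls only through Parp1-/- 6 Gy replicate 4. They ranged at 6 Gy from -1.48 for Ccr7 (adjusted p = 0.658) to -3.50 for Gpr174 (adjusted p = 0.193), which are differences as large as or larger than without the block for 6 of the 7, with Ccr6 at -1.84 the exception. No scan day held both wild-type sham and wild-type irradiated arrays, so a within-day value cannot be given there, and day and dose cannot be told apart within wild type. In Parp1-/- mice day 1 held irradiated replicate 5 and sham replicates 1 and 2. Within that day the differences were -4.47 for Cxcr5, -3.69 for Ccr6, -2.09 for Ccr9, -1.79 for Gpr174, -0.77 for S1pr1, -0.60 for Gpr183, -0.48 for Ccr7 and 0.35 for Cxcr4. With day as a block, Cxcr5 (adjusted p = 0.0029) and Ccr6 (adjusted p = 0.0137) were the 2 that passed in Parp1-/- mice. Only day 1 held both Parp1-/- groups, so that the blocked values are the day 1 differences and rest on 1 irradiated array, replicate 5. That array was not well above background for Cxcr5, Ccr6 or Ccr9, so that these sizes are uncertain. Over all genes, the block left 38 called higher and 18 lower in Parp1-/- mice.

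The doses and genotypes were then compared with each other. In wild type, all 8 receptors were at a lower mean after 8.8 Gy than after 6 Gy (Gpr174 below background at both), but 0 of 8 passed the limma test (3 of 8 at an unadjusted p under 0.05, beside 18% of all genes; 0% of all genes were called). The largest differences were -1.51 ± 0.45 for Ccr9 (adjusted p = 0.129), -1.47 ± 0.43 for Gpr183 (adjusted p = 0.128) and -1.02 ± 0.40 for Ccr6 (adjusted p = 0.194). All arrays of both doses were scanned on the same day. For Gpr183 the doses did not overlap, as for 3.05% of all genes in that direction, and for Ccr9 the 8.8 Gy arrays at -1.93 and -2.01 lay within the range at 6 Gy.

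Between unirradiated genotypes no receptor differed beyond the spread: 0 of 8 passed (0 of 8 also at an unadjusted p under 0.05), against 0.682% of all genes called and 20.6% at an unadjusted p under 0.05. The widest difference was -0.61 for Gpr174 (95% interval -1.60 to 0.38), and that of Ccr6 was -0.26 (-1.04 to 0.52). The sham arrays of the genotypes shared no scan day, so that genotype and day cannot be told apart in this comparison. At 6 Gy, Parp1-/- mice had lower means than wild type for 7 of 8, with Gpr174 not above background in either genotype. S1pr1 was the exception at 0.12 ± 0.32 (adjusted p = 0.864). Again 0 of 8 passed, with 4 of 8 at an unadjusted p under 0.05, beside 0.85% of all genes called and 23.3% at an unadjusted p under 0.05. Ccr9 (-1.63 ± 0.42, adjusted p = 0.0563) and Ccr6 (-1.17 ± 0.38, adjusted p = 0.0801) did not overlap between genotypes (2.13% of all genes did not overlap with Parp1-/- lower), while Cxcr5 (-1.56 ± 0.48, adjusted p = 0.0747) did. Without the array labelled Parp1-/- 6 Gy replicate 1, whose Parp1 level was that of wild type, Ccr9 (-1.73, adjusted p = 0.0369) and Cxcr5 (-1.76, adjusted p = 0.0496) passed. Without this array and wild-type 8.8 Gy replicate 4, whose Parp1 level was that of Parp1-/-, Ccr9 (-1.73, adjusted p = 0.0365) and Ccr6 (-1.32, adjusted p = 0.0373) passed. Only 1 of the 5 Parp1-/- arrays was well above background for Ccr9 at 6 Gy. Ccr9 also passed without wild-type 6 Gy replicate 5 (-1.82, adjusted p = 0.0439). On scan day 3, which held 3 of the Parp1-/- and all 5 wild-type arrays, the differences were -1.57 for Ccr9, -1.0 for Ccr6 and -0.69 for Cxcr5.

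The difference between the genotypes' responses to 6 Gy was tested directly, with sham groups that were scanned on separate days. It reached -1.44 ± 0.59 for Ccr9 (adjusted p = 0.127), -1.07 ± 0.68 for Cxcr5 (adjusted p = 0.33) and -1.01 ± 0.57 for Gpr183 (adjusted p = 0.272). None of the 8 passed (1 of 8 at an unadjusted p under 0.05), whereas 6.08% of all genes did and 25.6% had an unadjusted p under 0.05. At the doses of equal lethality, 6 Gy in Parp1-/- and 8.8 Gy in wild type, the irradiated groups differed by between -0.88 (Cxcr5, 95% interval -1.93 to 0.17) and 0.54 (S1pr1, -0.16 to 1.24), leaving out Gpr174, which was not above background in either. Here 0 of 8 passed, also at an unadjusted p under 0.05, and 0% of all genes were called, with 2.06% at an unadjusted p under 0.05. Parp1 itself was not called in this limma comparison (-1.63 ± 0.54, adjusted p = 0.999). These groups hold the near-equal pair of arrays and both arrays whose Parp1 goes against the label. The lack of calls therefore does not show that the groups were alike. The responses at these doses differed most for S1pr1, by 0.91 (95% interval -0.05 to 1.87, adjusted p = 0.477), and least for Ccr9, by 0.07 (-1.20 to 1.34). None of the 8 passed for that difference, where again 0% of all genes were called (10.4% at an unadjusted p under 0.05). For Ccr9, Ccr6 and Cxcr5 the order of the group means was wild-type 0 Gy, Parp1-/- 0 Gy, wild-type 6 Gy, wild-type 8.8 Gy and Parp1-/- 6 Gy. Neither the sham neighbours nor the irradiated neighbours in that order passed the test of their difference, and the step from Parp1-/- 0 Gy to wild-type 6 Gy was not tested. With median centring the calls over all genes moved from 64 lower and 47 higher to 169 and 3643 between genotypes at 6 Gy, from 0 and 0 to 48 and 1638 between the doses, and from 674 and 120 to 434 and 3512 for the difference of responses at 6 Gy.

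Markers of T and B cells fell in the same arrays. Of 17 T cell markers, 12 passed as lower at 6 Gy and 14 at 8.8 Gy in wild type and 14 in Parp1-/- mice, with median differences of -1.27, -1.59 and -1.51. Of 14 tested B cell markers, 11, 12 and 12 passed as lower, with medians of -2.22, -3.03 and -2.65. None of these lists had a marker that passed as higher. The mean level of the 31 tested T and B cell markers ranged from 1.85 to 2.46 on wild-type sham arrays, from 0.40 to 0.70 at 6 Gy and from -0.38 to 0.34 at 8.8 Gy. It ranged from 1.25 to 2.53 on Parp1-/- sham arrays and from -0.39 to 0.47 after 6 Gy, and the low sham arrays were again replicates 1 and 3.

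**Figure D3:**
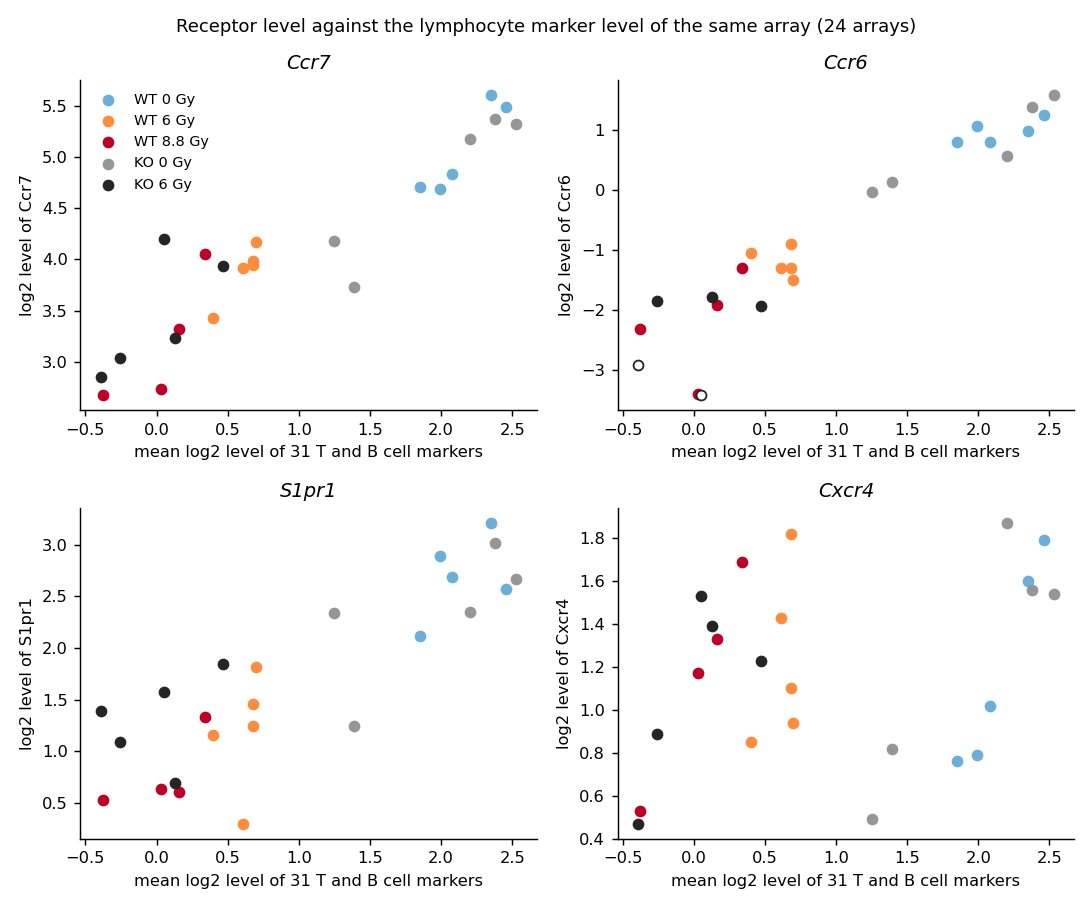
Level of Ccr7, Ccr6, S1pr1 and Cxcr4 on each of the 24 arrays against the mean level of 31 T and B cell markers on the same array (both log2, relative to the 75th percentile), coloured by group; open points were not well above background. The first 3 receptors are higher where the marker mean is higher, whereas Cxcr4 lies between 0.49 and 1.87 on the sham arrays and between 0.47 and 1.82 on the irradiated arrays.

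The receptors were therefore also compared after subtracting each array's mean of those 31 markers, which asks whether a receptor fell more or less than T and B cell RNA in general and does not depend on how each array was scaled. Most genes do not belong to lymphocytes, and 82.6%, 92.8% and 88.2% of all tested genes passed as higher on this relative scale in the wild-type 6 Gy, wild-type 8.8 Gy and Parp1-/- responses. Only 0.46%, 0.199% and 0.214% passed as lower. Of the 8 receptors, 1 passed as higher at 6 Gy, 1 at 8.8 Gy and 3 in Parp1-/- mice, and 1, 3 and 3 passed as lower.

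Cxcr4 was the receptor that passed as higher in each response, by 1.57 ± 0.21 (adjusted p = 1.43e-06), 2.09 ± 0.22 (adjusted p = 3.38e-08) and 1.79 ± 0.21 (adjusted p = 7.71e-08), as did most genes on the array. Its relative level was -1.10, -0.67, -1.06, -0.74 and -1.20 on the wild-type sham arrays and between -0.99 and -0.33 on the Parp1-/- sham arrays, against 0.24 to 1.48 on all irradiated arrays. Sham and irradiated arrays did not overlap, as was so for 69.2%, 82.3% and 55.7% of all genes in this direction. With scan day as a block these values were 1.76 (adjusted p = 0.00522), 2.29 (adjusted p = 0.000445) and 2.02 (adjusted p = 0.000646). The wild-type ones are tied to the controls only through Parp1-/- 6 Gy replicate 4. The Parp1-/- one is the day 1 difference of irradiated replicate 5 alone from 2 sham arrays. Ccr7 was higher relative to the markers in Parp1-/- mice (0.64 ± 0.22, adjusted p = 0.0105) and so was S1pr1 (0.94 ± 0.29, adjusted p = 0.00442). Against T cell markers alone Ccr7 was at 0.28 (adjusted p = 0.178) and S1pr1 at 0.58 (adjusted p = 0.0998) there, so neither passed there.

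Ccr6 fell further than the markers at 8.8 Gy in wild type (-1.10 ± 0.34, adjusted p = 0.00428) and in Parp1-/- mice (-1.16 ± 0.32, adjusted p = 0.00213), with -0.66 ± 0.32 at 6 Gy in wild type (adjusted p = 0.0608). Against B cell markers alone the values were -0.72 (adjusted p = 0.0512), -0.72 (adjusted p = 0.0415) and -0.31 (adjusted p = 0.373). With scan day as a block the wild-type values were -0.41 (adjusted p = 0.492) at 8.8 Gy and 0.033 (adjusted p = 0.957) at 6 Gy, and the Parp1-/- value was -2.01 (adjusted p = 0.00479), which again rests on replicate 5, not above background for Ccr6. Without both arrays whose Parp1 goes against the label, the wild-type 6 Gy value of -0.66 passed (adjusted p = 0.0287). Ccr9 fell further than the markers in the same 2 responses, by 0.79 ± 0.32 (adjusted p = 0.022) and 0.89 ± 0.30 (adjusted p = 0.00892), and was at 0.14 ± 0.30 (adjusted p = 0.653) at 6 Gy in wild type. Since only 1 of 4 and 1 of 5 irradiated arrays in those 2 responses were well above background for Ccr9, these sizes rest mostly on signals near background. The 8.8 Gy call for Ccr9 was lost without wild-type 8.8 Gy replicate 3 (-0.48, adjusted p = 0.143) or 4 (-0.65, adjusted p = 0.0772), and without replicate 4 and Parp1-/- 6 Gy replicate 1 together (-0.65, adjusted p = 0.0823). With scan day as a block, neither Ccr9 call held (-1.24, adjusted p = 0.0799, and -0.42, adjusted p = 0.546). Against T cell markers alone the falls were 1.11 (adjusted p = 0.000859) and 1.24 (adjusted p = 0.000205).

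On the relative scale Ccr9 passed in 2 comparisons of irradiated groups, in each of which one group had only 1 array well above background for it. It was lower after 8.8 than after 6 Gy in wild type (-0.94 ± 0.32, adjusted p = 0.0456) and lower in Parp1-/- than in wild-type mice at 6 Gy (-1.02 ± 0.30, adjusted p = 0.0154). The background for these calls was 0.138% and 0.544% of genes lower, with 16.3% and 25.8% higher. Against B cell markers alone neither was called (adjusted p = 0.168 and 0.106), nor with scan day as a block (0.0529 and 0.0652). The call between doses was also lost without any of wild-type 6 Gy replicates 1, 2, 3 or 4 or wild-type 8.8 Gy replicates 3 or 4, with adjusted p between 0.0536 and 0.228, and without both arrays whose Parp1 goes against the label (-0.79, adjusted p = 0.142). S1pr1, which did not pass with all arrays, passed as higher in Parp1-/- than in wild-type mice at 6 Gy with those 2 arrays left out (0.92, adjusted p = 0.025) or with the near-equal pair left out (0.92, adjusted p = 0.0259). The interaction of genotype and 6 Gy for relative Ccr9 was -1.03 ± 0.42 (adjusted p = 0.108).

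Gpr174 passed as lower on the relative scale in all 3 responses (adjusted p = 7.92e-05, 0.000433 and 0.00803), but its irradiated levels were not above background and its bound lies close to the markers. It was tested only through the wild-type sham group, so these calls are not counted as support either. At the bound it fell by 1.67 and 2.34 in wild type at 6 and 8.8 Gy, against falls of 1.53 and 2.11 in the marker mean. In Parp1-/- mice, where 2 of 5 sham arrays were not above background, the bound was -1.57, beside -1.95 for the marker mean. A fall beyond the markers was thus not shown there. The remaining relative values were near 0 or wide. Cxcr5 was at -0.01 (95% interval -0.99 to 0.96), -0.12 (-1.16 to 0.92) and -0.67 (-1.65 to 0.31), and Gpr183 at 0.57 (-0.09 to 1.22), -0.33 (-1.02 to 0.36) and -0.03 (-0.68 to 0.62). Within scan day 1, Cxcr5 of Parp1-/- mice was at -2.80 relative to the markers and passed with day as a block (adjusted p = 0.00262), which rests on irradiated replicate 5, the array not above background for Cxcr5.

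**Figure D4:**
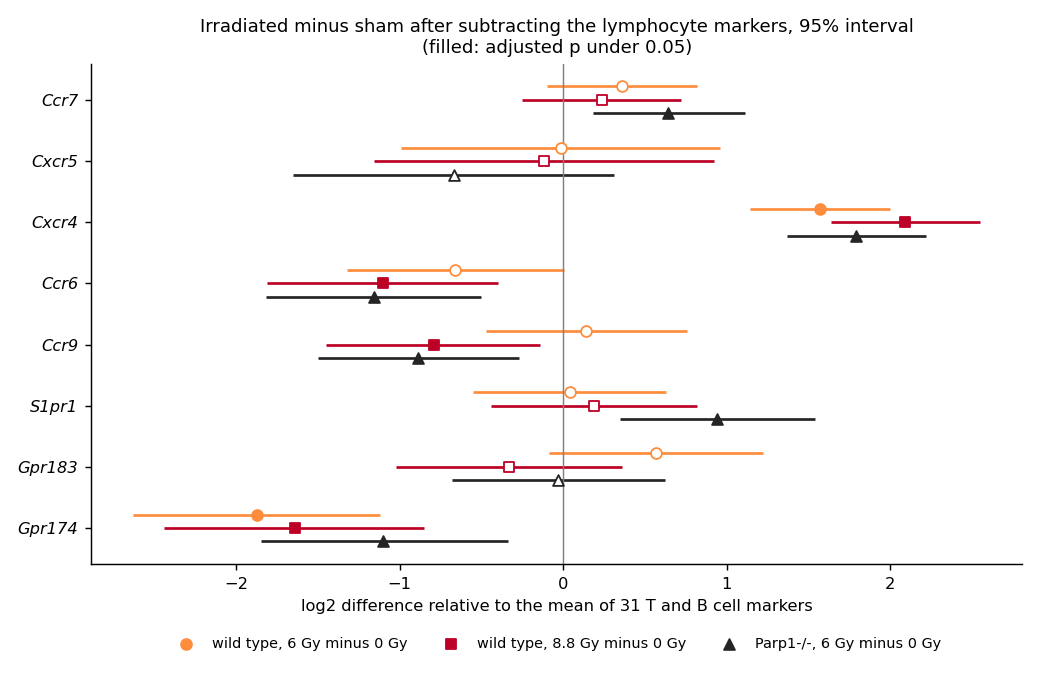
Log2 difference between irradiated and sham mice for each receptor after subtracting the mean of 31 T and B cell markers of each array, with 95% intervals; filled symbols passed at an adjusted p under 0.05. Cxcr4 lies at 1.57 to 2.09, Ccr6 left of 0 in all 3 responses, and the sizes for Gpr174 rest on arrays that were not above background.

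Receptors other than Cxcr4 varied together over the 24 arrays. Pearson correlations of their levels were between 0.63 and 0.94 for the 21 pairs (median 0.85), and the arrays share the group differences that such a value holds. After removing the group means, the same pairs had correlations from -0.15 to 0.86 (median 0.43). Cxcr5 had little in common with Ccr7 (-0.08), Ccr9 (-0.14) and Gpr174 (-0.15) within groups, and most with Ccr6 (0.43). Cxcr4, in contrast, was only loosely tied to the others over all arrays (0.06 to 0.51) but varied with Ccr7 (0.80), Ccr9 (0.78), Gpr174 (0.73) and Gpr183 (0.73) within groups. The wild-type sham arrays with the highest Cxcr4 level, replicates 2 and 4, were also highest for Ccr7, Ccr9 and Gpr174. The same 2 arrays had low mean levels of hepatocyte markers (-1.11 and -0.70, against 8.17, 6.02 and 7.32 on replicates 1, 3 and 5). Whether this bears on the shared variation within groups was not tested.

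The 2 genes most like each receptor over the 24 arrays, of 12983 compared, are given as a description. Ccr7 was closest to Evl (r = 0.98, a regulator of actin filaments) and Sh2d1a (0.98, the SAP adaptor of T and NK cells). Cxcr5 was closest to Cd79b (0.962, part of the B cell receptor) and Ms4a1 (0.951, CD20). Ccr6 was closest to Arl5c (0.962) and H2-Ob (0.938, a class II chaperone of B cells), and Ccr9 to Sidt1 (0.983) and Cd8a (0.978, the co-receptor of cytotoxic T cells). S1pr1 was closest to Malt1 (0.929, an NF-kappaB signalling protease) and Phf6 (0.928), Gpr174 to Tdrp (0.973) and Ehd3 (0.969), and Gpr183 to Bcl11a (0.94, a B cell and progenitor transcription factor) and Ptprcap (0.94, a partner of CD45). Cxcr4 had the loosest matches, Kmt2b (0.865, a histone methyltransferase) and Tnks2 (0.858, tankyrase 2, which attaches ADP-ribose chains). Within groups those 2 were at 0.915 and 0.881, whereas the within-group value for Ccr6 and Arl5c was 0.762.

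The other genes of the receptors' pathways are read against 15.5%, 7.03% and 12.3% of all tested genes called higher in the wild-type 6 Gy, wild-type 8.8 Gy and Parp1-/- responses, and 10.9%, 9.02% and 10.5% called lower. Of 17 tested genes that make, trim or break down the receptors' ligands, 2 rose and 1 fell at 6 Gy in wild type (median -0.29), 1 rose at 8.8 Gy (median 0.12), and 2 rose and 1 fell in Parp1-/- mice (median -0.11). Ccl25, the ligand of Ccr9, rose in all 3 responses, by 1.03 ± 0.28 (adjusted p = 0.0115), 1.42 ± 0.30 (adjusted p = 0.00304) and 1.36 ± 0.28 (adjusted p = 0.00145). With median centring its 6 Gy wild-type value was 0.25 (adjusted p = 0.467). Ccl19, a ligand of Ccr7, rose by 1.34 ± 0.37 at 6 Gy in wild type (adjusted p = 0.0126), where Dpp4, a peptidase that trims chemokines and is also a T cell surface protein, fell by 1.2 ± 0.33 (adjusted p = 0.011). Ccl19 did not pass with median centring (0.56, adjusted p = 0.114). In Parp1-/- mice Sphk1, which makes sphingosine-1-phosphate, fell by 1.22 ± 0.37 (adjusted p = 0.019), and Sgpl1, which breaks it down, rose by 0.66 ± 0.21 (adjusted p = 0.0284; 0.70, adjusted p = 0.0825 with median centring).

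Of 21 other chemokine and lipid receptors, 1 rose and 3 fell at 6 Gy in wild type (median -0.48), 8 fell at 8.8 Gy (median -0.90) and 6 fell in Parp1-/- mice (median -0.14). Ccr10, a skin-homing and plasma cell receptor, was not above background on any irradiated array and was at least 1.44-fold (adjusted p = 0.00194) and 2.07-fold lower (adjusted p = 0.000834) at 6 and 8.8 Gy in wild type. It passed as lower in Parp1-/- mice (adjusted p = 0.000103), where only 2 of 5 sham arrays were above background and no bound is given. Like Gpr174, Ccr10 was bright enough to be tested only through the wild-type sham group. Gpr18, a lymphocyte receptor, fell by 1.27 ± 0.45 at 6 Gy in wild type (adjusted p = 0.0424) and by 1.70 ± 0.45 in Parp1-/- mice (adjusted p = 0.00893). Cxcr6, found on effector T and NKT cells, fell by 2.06 ± 0.32 at 8.8 Gy (adjusted p = 0.000238). The neutrophil receptor Cxcr1 rose by 1.53 ± 0.45 at 6 Gy in wild type (adjusted p = 0.0175; 0.75, adjusted p = 0.0906 with median centring).

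Of 13 tested adhesion genes, 0 rose and 1 fell at 6 Gy in wild type (median 0.30), 4 rose and 1 fell at 8.8 Gy (median 0.65), and 6 rose and 1 fell in Parp1-/- mice (median 0.81). The gene that fell was in each case Itgb7, the integrin chain that pairs with alpha 4 for gut homing, by 0.93 ± 0.30 (adjusted p = 0.026), 1.53 ± 0.32 (adjusted p = 0.00294) and 1.10 ± 0.30 (adjusted p = 0.0106). Itga6, a laminin-binding integrin chain abundant on platelets, rose by 1.24 ± 0.42 at 8.8 Gy (adjusted p = 0.0486) and by 1.17 ± 0.40 in Parp1-/- mice (adjusted p = 0.0366), but passed in neither without the near-equal arrays (1.18, adjusted p = 0.127, and 1.13, adjusted p = 0.0771). Pecam1, an adhesion protein of endothelium, platelets and leukocytes, rose by 1.53 ± 0.33 at 8.8 Gy (adjusted p = 0.0039), and Itgb1 by 1.27 ± 0.41 in Parp1-/- mice (adjusted p = 0.0269).

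Of 10 tested transcriptional and surface regulators of these receptors, 5 fell at 6 Gy in wild type (median -0.83), 2 at 8.8 Gy (median -0.84) and 2 in Parp1-/- mice (median -0.72), and 0 rose in any. Ebf1, a B cell lineage factor, was at least 1.49-fold lower at 6 Gy in wild type (adjusted p = 0.000364, 4 of 5 sham arrays above background) and fell by 2.57 ± 0.44 at 8.8 Gy (adjusted p = 0.000608, 1 of 4 arrays above background). It passed as lower in Parp1-/- mice (adjusted p = 0.000521), but only 1 of 5 sham arrays was above background and no bound is given. Ebf1, too, was bright enough to be tested only through the wild-type sham group. Bach2, a repressor that keeps lymphocytes undifferentiated, fell by 1.74 ± 0.41 at 6 Gy (adjusted p = 0.00503) and by 1.14 ± 0.41 in Parp1-/- mice (adjusted p = 0.0463; 0.0664 without the near-equal arrays and 0.0501 with median centring). Pou2f2, the B cell factor Oct2, fell by 1.39 ± 0.38 at 8.8 Gy (adjusted p = 0.0163; 0.0688 without the near-equal arrays).

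Of 33 tested genes of receptor signalling and cell movement, 3 rose and 0 fell at 6 Gy in wild type (median -0.12), 4 rose and 1 fell at 8.8 Gy (median -0.05), and 7 rose and 1 fell in Parp1-/- mice (median 0.32). Rgs1, which shortens chemokine receptor signalling, rose in all 3: by 1.69 ± 0.30 (adjusted p = 0.000678), by 1.14 ± 0.32 (adjusted p = 0.0168) and to at least 1.42-fold higher in Parp1-/- mice, where no sham array was above background (adjusted p = 0.0042). Its 8.8 Gy call was lost without the near-equal arrays (adjusted p = 0.0708) and with median centring (adjusted p = 0.0651). Grk5, a kinase that turns off receptors of this kind, rose by 1.30 ± 0.31 at 8.8 Gy (adjusted p = 0.0071) and 1.27 ± 0.29 in Parp1-/- mice (adjusted p = 0.00313). Ptk2b, a tyrosine kinase of migrating leukocytes, rose by 1.01 ± 0.33 at 6 Gy (adjusted p = 0.0278; 0.22, adjusted p = 0.44 with median centring). Rhoh, a GTPase of T and B cells, fell by 1.08 ± 0.31 in Parp1-/- mice (adjusted p = 0.0137). Without the near-equal arrays, the genes called at 8.8 Gy dropped from 5 to 2 for adhesion (1 rose and 1 fell), from 2 to 1 for regulators and from 5 to 1 for signalling. With median centring the genes called at 6 Gy in wild type were 7 for ligands, 11 for other receptors, 4 for adhesion and 10 for regulators, all of them lower, and 21 lower and 1 higher (Rgs1, 0.91, adjusted p = 0.0149) for signalling, under the shift of all genes given above.

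Markers of other cells moved with some groups, and their part in the receptor values was not tested. Of 11 neutrophil markers 3, 3 and 1 rose in the 3 responses and 0, 0 and 2 fell, with list means per array between 1.77 and 3.87. Of 7 resident macrophage markers 3, 0 and 4 rose, and 4 of 6, 3 of 6 and 4 of 6 erythroid markers fell. Of 6 platelet markers 0, 2 and 1 rose, with medians of 0.47, 1.24 and 1.05 and array means between 3.31 and 6.37. Of 8 monocyte markers 1, 1 and 2 rose and 0, 1 and 1 fell, and of 6 NK cell markers 0, 1 and 2 fell. None of 4 heart muscle markers or the 1 tested lung marker passed. The heart muscle means per array ran from -2.18 to 6.29, the highest on the single array Parp1-/- 6 Gy replicate 3 (median of that group -1.18). None of 8 hepatocyte markers passed, but their array means were spread from -1.11 to 8.17 (median 6.02) within the wild-type sham group alone. These means ran from 0.41 to 7.48 at 6 Gy and from -0.22 to 7.29 at 8.8 Gy in wild type (medians 0.89 and 6.83). In Parp1-/- mice they ran from -0.17 to 7.50 in sham and from -0.61 to 7.24 in irradiated blood (medians 0.61 and 6.33). Of 4 tested endothelial markers, relevant to S1pr1, 0, 1 and 1 rose, and the list mean was between 0.97 and 2.10 on wild-type sham arrays, 1.51 and 2.38 at 6 Gy and 2.10 and 2.59 at 8.8 Gy. In Parp1-/- mice it was 0.37 to 2.16 in sham and 1.75 to 2.58 in irradiated blood. The endothelial genes Tek and Emcn were not above background on any array of any group.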

How the data were processed

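Intensity values were read from 24 deposited 1-colour scanner files, 1 mouse each; per the file headers, Agilent Feature Extraction 11.5.1 detrended the spots spatially and multiplicatively and put surrogate values in place of the dimmest to give the processed signal, with probe positions on mm9. The authors' deposited table of log2 values holds 10214 probes and 5 of the 8 receptors. Set against the scanner files, it was log2 of the processed signal plus 1 constant per array (-0.68 to 1.17; column medians 7.63 to 8.09). The choice of probes and constants is unknown here. It served as an alternative.

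Control spots were left out, each array was scaled on its 75th percentile, and each gene took its brightest probe. A gene was tested if at least 4 arrays of any group had it well above background (13054 of 24325) with limma 3.58.1 (R 4.3.3), as 5 group means over 24 arrays, 9 comparisons and Benjamini-Hochberg adjustment. The code was tested on simulated data. A second fit used levels minus the mean of 31 T and B cell markers (1 of the listed B cell markers was not bright enough to test). Named genes of each list were the called genes with the largest differences, up to 2 per direction; 1 of them is not reported here. The members, lists and markers were chosen with earlier results of these data known. Mice are individual animals per the labels, and the number of arrays limits the precision.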

Additional observations from a re-analysis of the deposited data

Results flagged for a closer look

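In 40 receptor-by-group sets of 4 or 5 arrays, 3 held an array whose gap to the nearest other took up most of the group's range, where chance gives about 1 in 20. S1pr1 was 1.33 on wild-type 8.8 Gy replicate 1, with the other 3 arrays of that group between 0.53 and 0.64. Gpr174 was -5.32 on wild-type 8.8 Gy replicate 3, with the others between -4.19 and -4.06, and -2.86 on Parp1-/- 6 Gy replicate 5, with the others between -4.96 and -4.49. None of these Gpr174 values was well above background.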

How the results depend on the processing

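Of the 20 called receptor differences between irradiated and sham mice, 2 of 479 alternative values had the opposite sign, both from the other Gpr174 probe (0.83 at 6 Gy and 0.30 at 8.8 Gy in wild type), and 49 lost the call. The receptors called at 6 Gy and 8.8 Gy in wild type and at 6 Gy in Parp1-/- mice (6, 7 and 7 in limma) were 2, 2 and 2 with only always-detected probes, which keep 3 receptors. They were 0, 1 and 2 with scan day and 0, 0 and 2 with slide as a fixed block. Over all genes, the slide block called 0 at either dose in wild type and 34 higher and 19 lower in Parp1-/- mice. The authors' deposited table, which holds 5 of the receptors, gave 4 in Parp1-/- mice, beside 1551 genes higher and 768 lower of 7179. Leaving out 1 array gave 5 to 6, 7 and 6 to 7. Cxcr4 at 6 Gy in wild type became -0.75 with median centring. Between genotypes at 6 Gy 0 were called, and 1 with median centring, quantile normalization, no filter on dim probes or slide as a random block. Leaving out both near-equal arrays also gave 1. The 75th percentile of always-detected probes gave 3, and 2 were called without both arrays whose Parp1 level goes against the label. Over all genes, the calls there went from 47 higher and 64 lower to 3643 and 169 with median centring. The other settings gave, in order, 189 and 134, 85 and 532, 308 and 268, 79 and 412, 162 and 784, and 117 and 490. Leaving out 1 array gave 0 to 2 receptors. Between the doses the authors' table gave 1 call. Except where named, the cause was not tested. Among uncalled differences, 15 of 95 alternatives of the responses had the opposite sign. At 6 Gy in wild type 5 alternatives for Gpr183 and 1 for Cxcr4 had a call. In the other comparisons 111 of 1300 had the opposite sign and 14 a call. With the replicate number as a block 6, 7 and 7 were called, and 0 in the other comparisons. Samples sharing a number showed no pairing: their correlations were -0.77 to 0.749 (median -0.045, 46 pairs), beside -0.774 to 0.771 for other numbers. Signal over background limits Gpr174, Ccr9, Gpr183 and Cxcr5 after irradiation.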
